A study of Homo sapiens with 124 samples.

Results

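The 6 large genes FHIT, WWOX, IMMP2L, LRP1B, MACROD2 and CTNNA3, which lie at common fragile sites, were followed in maps of contact with the nuclear lamina in single human cells. The members were the 100 kb bins that overlap these genes in hg19, 98 bins in all, and the 120 bins of their 1 Mb flanks, together 218 of the 26426 usable bins of the genome. All 218 were usable, so that no member was lost. The genes span 59.73 to 61.24 Mb of chromosome 3 (FHIT), 78.13 to 79.25 Mb of chromosome 16 (WWOX), 110.3 to 111.2 Mb of chromosome 7 (IMMP2L), 140.98 to 142.89 Mb of chromosome 2 (LRP1B), 13.97 to 16.04 Mb of chromosome 20 (MACROD2) and 67.67 to 69.46 Mb of chromosome 10 (CTNNA3). Bins of a gene body hold exons and introns together.

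The samples were single haploid cells of clone 14 of KBM7, a human leukaemia line with a near-haploid genome, and all carried the adenine methyltransferase Dam fused to LaminB1. LaminB1 is a protein of the lamina under the nuclear envelope, and GATC motifs that come close to it are methylated and then cut, amplified and sequenced. All cells received 0.5 nM Shield1, which stabilises the fusion, for 15 h, and were sorted as the smallest 2% of cells positive for both Fucci cell cycle markers, so the data describe 1 clone of 1 line and no other condition. The deposited table held 118 of the 124 samples, with 28372 to 385661 reads recovered per cell.

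Common fragile sites are stretches of the genome that break when DNA replication is slowed, and many of them coincide with very long genes. Such genes take long to transcribe and hold few replication origins, and their deletions are frequent in cancer cells. Regions at the lamina are in general poor in genes, little transcribed and late replicating. FHIT encodes a dinucleoside triphosphate hydrolase, WWOX an oxidoreductase with WW domains, IMMP2L a peptidase of the inner mitochondrial membrane, LRP1B a receptor of the LDL receptor family, MACROD2 an ADP-ribose hydrolase and CTNNA3 an alpha-catenin of cell junctions. In RefSeq, LRRN3 lies within IMMP2L, FLRT3 within MACROD2 and LRRTM3 within CTNNA3, all of them genes for leucine-rich repeat membrane proteins.

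The 250 bases before the most upstream start listed for a gene are shown for 4 genes. The bins at the 5′ ends of the genes were compared in contact, and Dam acts on GATC, which is in capitals. They come from the RefSeq promoter table, which held 5 of the 6 genes and not LRP1B.
WWOX (GRCh38.p14, chr16:78099404-78099653, plus strand): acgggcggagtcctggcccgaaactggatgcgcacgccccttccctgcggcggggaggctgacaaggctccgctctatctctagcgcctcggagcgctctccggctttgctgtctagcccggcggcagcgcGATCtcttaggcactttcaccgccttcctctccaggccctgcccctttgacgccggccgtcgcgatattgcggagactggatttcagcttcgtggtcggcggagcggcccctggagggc
MACROD2 (GRCh38.p14, chr20:13995266-13995515, plus strand): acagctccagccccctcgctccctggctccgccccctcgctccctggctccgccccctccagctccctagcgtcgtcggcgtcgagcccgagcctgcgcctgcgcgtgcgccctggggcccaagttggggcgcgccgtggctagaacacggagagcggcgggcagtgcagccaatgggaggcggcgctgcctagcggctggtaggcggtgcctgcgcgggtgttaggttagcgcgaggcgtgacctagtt
IMMP2L (GRCh38.p14, chr7:111562493-111562742, minus strand): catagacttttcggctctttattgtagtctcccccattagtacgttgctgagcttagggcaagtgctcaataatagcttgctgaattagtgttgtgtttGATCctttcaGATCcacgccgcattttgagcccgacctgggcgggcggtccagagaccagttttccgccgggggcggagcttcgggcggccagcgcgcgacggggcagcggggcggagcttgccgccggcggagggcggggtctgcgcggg
CTNNA3 (GRCh38.p14, chr10:67696196-67696445, minus strand): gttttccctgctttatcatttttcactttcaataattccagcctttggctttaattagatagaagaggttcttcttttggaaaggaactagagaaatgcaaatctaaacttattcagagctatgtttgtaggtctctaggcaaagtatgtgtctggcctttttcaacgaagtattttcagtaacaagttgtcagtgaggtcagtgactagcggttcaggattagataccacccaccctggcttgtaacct
WWOX had 1 GATC in this window, IMMP2L had 2, and MACROD2 and CTNNA3 had 0, as had FHIT. GATC reads the same on both strands, and 35.8% of the 35116 windows of 250 bases in the table held it. CG dinucleotides numbered 29 in MACROD2, 27 in WWOX, 24 in IMMP2L, 11 in FHIT and 2 in CTNNA3, against a median of 11 over all windows. The contact values below are for bins of 100 kb and do not resolve these windows.

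Contact was called where the ratio of observed to expected reads was 1 or more. For a bin, the frequency gives how many of the 118 cells, in percent, had such a call, and for a region in 1 cell the contact share gives the percentage of its bins that had one. The bodies of these genes were in contact more often than most of the genome. Of the 98 body bins, 21 (21.4%) had a frequency of 80% or more, against 15.1% of all usable bins. The 20 to under 80% class held 74 body bins (75.5%, against 33.9%), and 3 body bins (3.06%, against 51.1%) were under 20%. None of the body bins had a frequency of 0, which 22.3% of all usable bins had. The median frequency was 73.7% over body bins, 52.1% over flank bins and 17.8% over all usable bins. Bins of 1 gene share their neighbourhood, so that these counts describe 6 places and not 98 independent ones. Cells are not replicates of a condition and the labels name no cultures, so that no p-value is given, SDs describe the spread between cells, and exact 95% Clopper-Pearson intervals cover the counting of cells only.

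The genes differed in level, with CTNNA3 and MACROD2 highest and WWOX lowest. The contact share of the CTNNA3 body was 78.1% ± 26.6 (SD, n = 118 cells), with a lowest value of 0, a median of 92.1% and a highest value of 100%. MACROD2 had 77.0% ± 28.4 and a median of 90.9%. The median lay above the mean in every gene but WWOX. IMMP2L had 71.1% ± 29.7 (median 77.8%). LRP1B had 70.1% ± 26.7 (median 77.5%) and FHIT 61.8% ± 35.6 (median 68.8%). WWOX had 36.7% ± 31.2 and a median of 33.3%. For each gene the lowest cell was at 0 and the highest at 100%, so the ranges over cells overlapped fully.

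**Figure D1:**
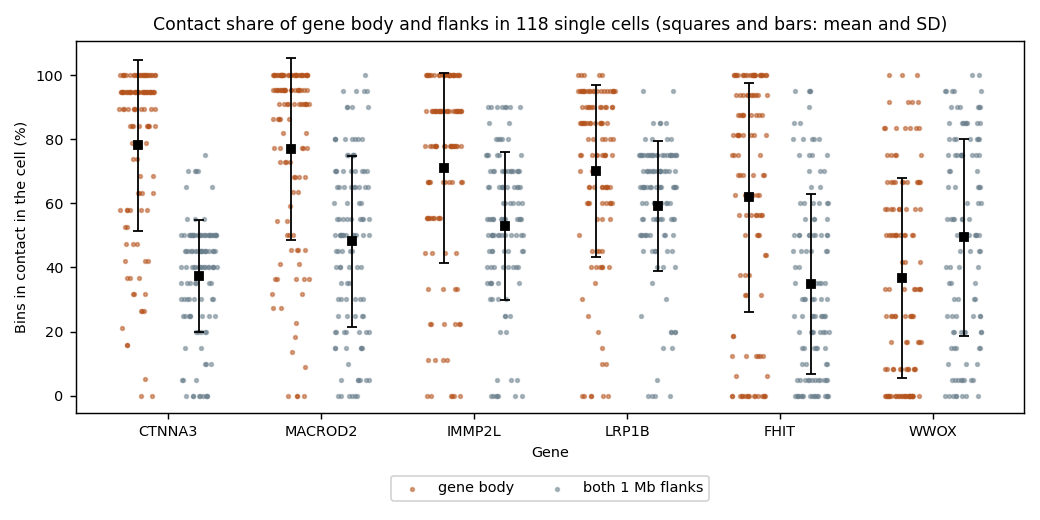
Percentage of bins in contact in each of 118 cells (points) in the gene body and in both 1 Mb flanks, for the 6 genes ordered by the mean of the body, with mean and SD as squares and bars. The body lay above the flanks on average for 5 genes, most for CTNNA3 (78.1 against 37.2%), and below them for WWOX (36.7 against 49.4%). The flanks of CTNNA3 were unequal, at 4.07% upstream and 70.4% downstream.

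The genes were then compared within cells, where the depth and overall contact of the cell are the same on both sides. The reads that a ratio of 1 stood for in the median cell still differed by gene, from 5.4 in CTNNA3 to 6.6 in WWOX (medians over body bins). The part of this in the order of the genes was not tested. Among cells in which a pair differed, the interval of the share of cells with the higher-ranked gene above excluded 50% for 11 of the 15 pairs. The order was taken from the same cells, so these intervals describe the cells counted and do not test the order. Over all 118 cells, WWOX was lower than each of the other 5 genes. It was below CTNNA3 in 101 of 118 cells (85.6%, 77.9 to 91.4%) and below MACROD2 in 98 of the 114 cells in which they differed (86.0%, 78.2 to 91.8%). FHIT, the nearest to WWOX in the order, was above it in 83 of 111 cells (74.8%, 65.6 to 82.5%). For most neighbours in the order from CTNNA3 to FHIT the interval held 50%. CTNNA3 was above MACROD2 in 49 of 113 cells (43.4%, 34.1 to 53.0%), IMMP2L above LRP1B in 62 of 117 (53.0%, 43.5 to 62.3%) and LRP1B above FHIT in 67 of 116 (57.8%, 48.2 to 66.9%). For MACROD2 and IMMP2L the interval excluded 50%, with MACROD2 above in 71 of 110 cells (64.5%, 54.9 to 73.4%). In the 28 cells numbered 96 to 124, described further on, 3 of the 11 pairs whose interval excluded 50% went the other way. There LRP1B was above WWOX in 10 of 27 cells, CTNNA3 above FHIT in 11 of 25 and IMMP2L above FHIT in 8 of 23. LRP1B was above FHIT in 60 of 89 cells in cells 1 to 94 and in 7 of 27 in cells 96 to 124.

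The chromosomes around these genes had lower medians. WWOX lies on chromosome 16, where the median bin frequency was 2.54%, while the median of its body bins was 47.0%. MACROD2 lies on chromosome 20 with a median of 3.39%, while its body had 78.0%. The body of CTNNA3 had 79.7% and chromosome 10 had 13.6%, and LRP1B had 73.3% and chromosome 2 had 19.5%. IMMP2L (76.3%) and FHIT (64.0%) were set against medians of 26.3% on chromosome 7 and 28.0% on chromosome 3. WWOX, the lowest of the 6 genes, was thus still above the median of its chromosome.

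Gene bodies differed from their 1 Mb flanks in most cells. The CTNNA3 body exceeded its flanks by 40.9 ± 17.0 percentage points and was above them in 114 of 116 cells that differed (98.3%, 93.9 to 99.8%). MACROD2 exceeded its flanks by 28.9 ± 19.9 points (109 of 114 cells) and FHIT by 27.0 ± 20.6 (97 of 107 cells). IMMP2L exceeded them by 18.2 ± 18.7 points (95 of 114 cells) and LRP1B by 11.0 ± 17.6 (82 of 108 cells). WWOX went the other way, at -12.8 ± 17.2 points, and was above its flanks in 23 of 109 cells (21.1%, 13.9 to 30.0%). The signs for LRP1B and WWOX depend on the flank length: with flanks of 0.5 Mb the differences were -1.95 and 1.48 points.

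The flanks on both sides of a gene were unequal for several genes. The flank before the 5′ end of CTNNA3 had a contact share of 4.07% ± 10.3, against 70.4% ± 31.5 after its 3′ end. All 10 of its upstream bins were under 20%, against 51.1% of all usable bins. In 2 of the 10 no cell had contact, which was so in 22.3% of all usable bins. A count of 0 allows a frequency of up to 2.54% as 3 counts of 118 and up to 3.08% as the exact 95% limit. Upstream and downstream shares were 19.4 and 50.2% for FHIT, 26.4 and 79.4% for IMMP2L and 36.8 and 81.4% for LRP1B. They lay closer together for MACROD2 (51.3 and 44.9%) and WWOX (48.0 and 50.8%). In IMMP2L, LRP1B and WWOX the downstream flank was above the gene itself, in 68 of 93, 86 of 109 and 78 of 100 cells that differed. The upstream flank of WWOX was also above the gene, in 71 of 102 cells. IMMP2L and LRP1B were above their upstream flanks, in 111 of 113 and 104 of 109 cells. The CTNNA3 body exceeded its upstream flank by 74.0 ± 26.3 points and its downstream flank by 7.68 ± 19.2 (above in 65 of 104 cells). MACROD2 exceeded its upstream and downstream flanks by 25.8 ± 25.5 and 32.1 ± 23.1 points, and FHIT by 42.4 ± 28.2 and 11.6 ± 20.4.

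**Figure D2:**
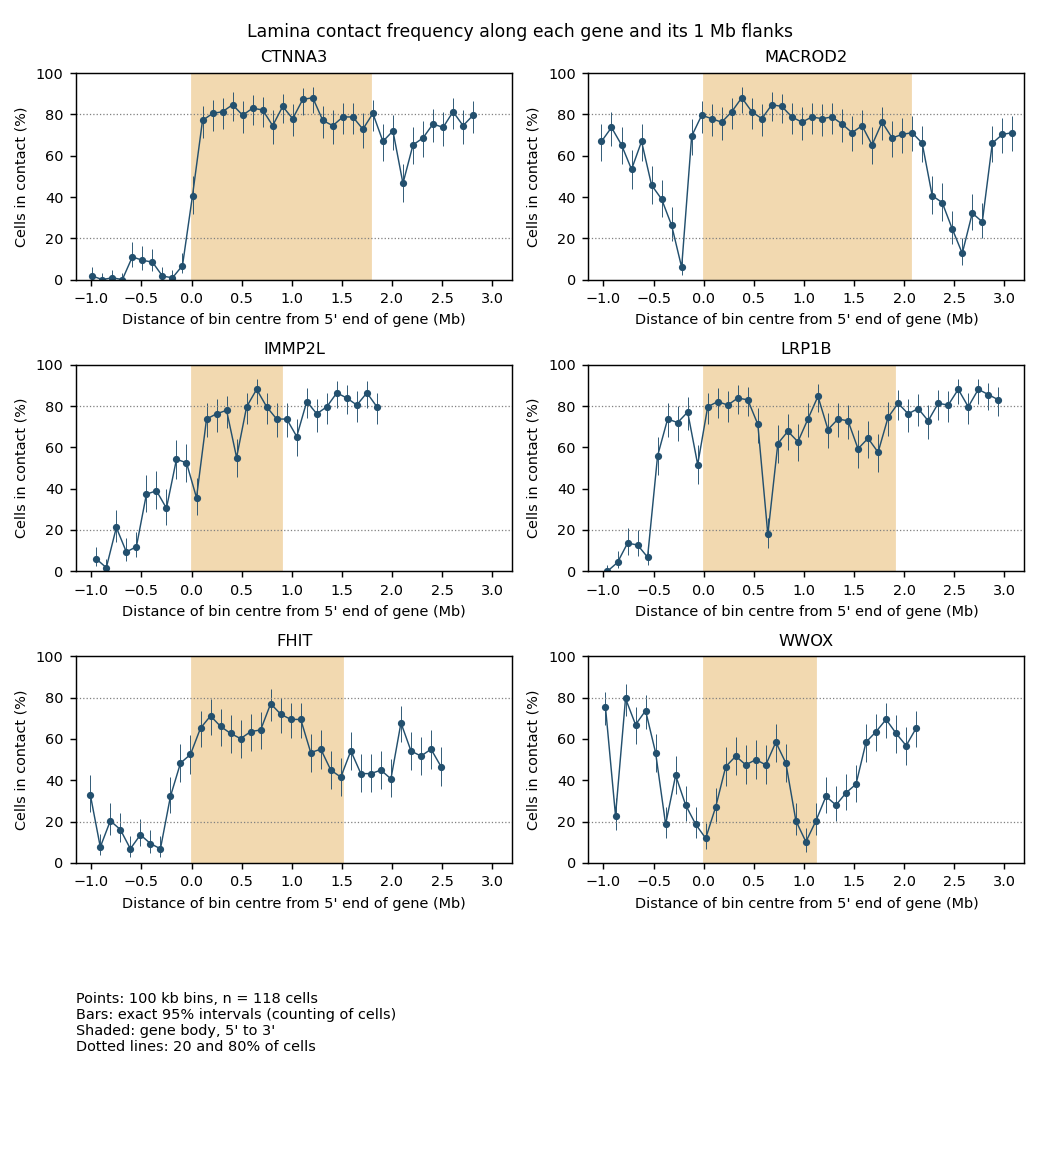
Frequency of contact (% of 118 cells, points, with exact 95% intervals) in 100 kb bins against the distance from the 5′ end of each gene in Mb, with the gene body shaded. CTNNA3 rises from 6.78 to 77.1% over 3 bins at its 5′ end, MACROD2 stays between 65.3 and 88.1%, and LRP1B has a single bin at 17.8%. Within WWOX the highest values lie in the middle of the gene, below the highest of its flanks.

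CTNNA3 contact rose at the 5′ end of the gene as the rule places it. The span in the rule is 1.79 Mb and the RefSeq gene 1851072 bases, so the annotated start may lie in the bin before it. The bin before the gene (chr10:69500001-69600000) was in contact in 8 cells (6.78%), the first bin of the span in 48 (40.7%), and the next in 91 (77.1%). Across the border of the first and second bins, 46 cells had contact only in the second and 3 only in the first. From the second bin on, the gene stayed between 72.9 and 88.1%, with the highest value in the bin from 68200001 to 68300000. In the median cell a ratio of 1 stood for 4.65 reads in the bin before the gene, 3.46 in its first bin and 4.58 in its second. The part of these differences in the edge was not tested.

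MACROD2 was high along its length and somewhat lower towards its 3′ end. Bins 1 to 14 were at 76.3% or more, and bins 15 to 22 at 65.3 to 76.3%. Its 22 body bins lay between 65.3 and 88.1%, and 20 of them were at 70% or more, which 24.9% of all usable bins reached. The edge on the 5′ side lay in the flank: chr20:13700001-13800000 was in contact in 7 cells (5.93%) and the next bin towards the gene in 82 (69.5%). In 75 cells contact was found only in the second of these bins, and in 0 cells only in the first. After the 3′ end the frequency fell from 66.1 to 40.7% between the first and second flank bins and was 12.7% in flank bin 5. Each body was also cut into 3 segments of near equal numbers of bins. The 5′ segment of MACROD2 had 80.9% ± 27.9 and its 3′ segment 71.1% ± 35.1, with the 5′ segment above in 49 of 77 cells that differed (63.6%, 51.9 to 74.3%). The difference of 9.87 points was 2.81 in cells 96 to 124 and 6.51 at a ratio of 0.5.

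IMMP2L was lowest in its first bin and highest in bin 7 (88.1%). Its first bin was at 35.6%, bin 5 at 55.1% (chr7:110700001-110800000) and the other 7 between 73.7 and 88.1%. The first bin was lower than the flank bin before it (52.5%) and than the second bin of the gene (73.7%). The frequency then stayed at 65.3 to 86.4% over the 10 bins beyond the gene. The 5′ segment (61.9% ± 34.1) was below the 3′ segment (80.5% ± 33.6) in 61 of 72 cells that differed. With bin 1 left out of the 5′ segment the difference was -5.51 points in place of -18.6, and the 5′ segment was below in 26 of 43 cells (60.5%, 44.4 to 75.0%). Bin 1 therefore carried most of the difference.

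LRP1B had the deepest gap inside a gene. Bin 7 from its 5′ end (chr2:142200001-142300000) was in contact in 21 cells (17.8%, 11.4 to 25.9%), between bins at 71.2 and 61.9%. Both of those neighbours were in contact in 58 cells, and in 17 of these the bin between them was in contact as well. No read fell there in 32 cells, against 9 and 13 cells for the neighbours. Reads over all cells numbered 429, against 1297 and 1081. A ratio of 1 stood for 5.79 reads in the median cell against 6.48 and 6.25. A bin at least 40 points below both neighbours was found once in the 98 body bins, and in 0.111% of all bins with neighbours. Gaps of at least 15 points numbered 3 in the bodies (2 in IMMP2L and 1 in LRP1B, 3.06%), against 1.45% of all such bins. These gap thresholds, and those of 50 points for steps and 20 points between sets of cells used further on, were chosen after the profiles had been seen. The rest of LRP1B lay between 57.6 and 84.7%. Contact reached 5 bins upstream of the gene (51.7 to 77.1%) and then dropped to 6.78% in chr2:143400001-143500000.

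FHIT changed more gradually. Its frequency rose over 4 bins from 6.78% in the flank (chr3:61500001-61600000) to 52.5% in the first bin of the gene and reached 77.1% in bin 9 (chr3:60400001-60500000). It fell to 41.5% in the last bin and stayed at 40.7 to 67.8% beyond the 3′ end. No FHIT bin reached 80%. The 5′ segment had 63.0% ± 37.4, the middle segment 69.3% ± 37.7 and the 3′ segment 52.9% ± 39.0, and the 5′ segment was above the 3′ segment in 56 of 75 cells that differed (74.7%, 63.3 to 84.0%). The difference of 10.1 points was 4.13 with 50000 reads per cell, 1.5 at a ratio of 2, 5.12 in cells 96 to 124 and 2.86 with the gene cut in 2.

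WWOX was low at both ends. Its first bin, which holds the 5′ end, was in contact in 14 cells (11.9%), and chr16:79100001-79200000 near the 3′ end in 12 (10.2%). Bins 3 to 9 between them lay at 46.6 to 58.5%. In the cells, the middle segment had 50.8% ± 40.4 against 34.3% ± 33.0 in the 5′ segment and 24.8% ± 31.4 in the 3′ segment. The gene MAF, for a transcription factor, overlaps the 3′ end of WWOX in RefSeq. Farther out the frequency was higher again, with up to 79.7% upstream and 69.5% downstream. The upstream flank also held a bin at 22.9% between bins at 75.4 and 79.7% (chr16:77200001-77300000). Steps of at least 50 points between neighbouring bins numbered 4 of 212 in the windows of the 6 genes (1.89%), against 1.02% of all neighbouring bins.

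The bins that hold the 5′ ends of the spans in the rule differed widely in contact. The first bin was at 79.7% in MACROD2 and LRP1B, 52.5% in FHIT, 40.7% in CTNNA3, 35.6% in IMMP2L and 11.9% in WWOX. The rounded span of IMMP2L begins at a bin border, so its annotated start may lie in the flank bin before it, at 52.5%. In the same order of genes, without LRP1B, the promoter windows held 29 CG dinucleotides in MACROD2, 11 in FHIT, 2 in CTNNA3, 24 in IMMP2L and 27 in WWOX. A relation between these counts and contact was not tested.

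In most cells each gene was in contact in part, from 78 cells for FHIT to 107 for LRP1B. All bins of MACROD2 were in contact in 33 cells (28.0%, 20.1 to 37.0%), all of IMMP2L in 28, all of FHIT and all of CTNNA3 in 24 each, all of LRP1B in 5 and all of WWOX in 3. No bin was in contact in 28 cells for WWOX (23.7%, 16.4 to 32.4%), 16 for FHIT (13.6%, 7.95 to 21.1%), 6 each for LRP1B and IMMP2L, 4 for MACROD2 and 2 for CTNNA3 (1.69%, 0.206 to 5.99%). These shares depend on depth and on the set of cells. With 50000 reads per cell (109 cells), all bins were in contact in 11.9% of cells for MACROD2, 14.7% for IMMP2L, 10.1% for FHIT, 7.34% for CTNNA3 and 0.92% for LRP1B. No bin was in contact in 7.34% for FHIT and 1.83% for LRP1B. All of FHIT was in contact in 13.3% of cells 1 to 94 and 42.9% of cells 96 to 124, and WWOX had no bin in contact in 3.57% of cells 96 to 124. IMMP2L has the fewest bins (9) and MACROD2 the most (22), which bears on how easily all are in contact. The longest unbroken run of contact bins inside the gene had a median over cells of 1.5 Mb in MACROD2 and 1.3 Mb in CTNNA3, against 0.8 Mb in LRP1B, 0.6 Mb in FHIT, 0.5 Mb in IMMP2L and 0.3 Mb in WWOX. A run cannot be longer than the bins of its gene. That limit was 2.2 Mb in MACROD2, 2 Mb in LRP1B, 1.9 Mb in CTNNA3, 1.6 Mb in FHIT, 1.2 Mb in WWOX and 0.9 Mb in IMMP2L. These medians therefore do not rank the genes at equal length. LRP1B had 2.90 ± 1.39 runs per cell and MACROD2 2.55 ± 1.67, a difference well within the spread between cells.

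**Figure D3:**
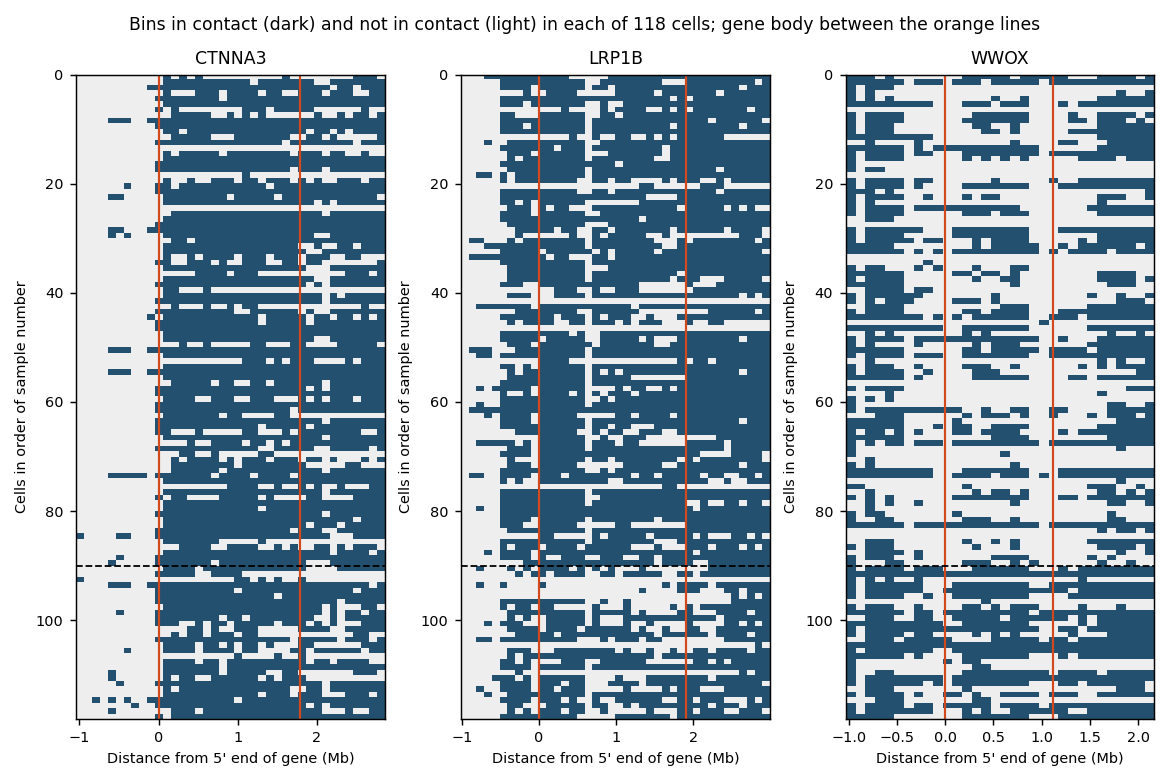
Contact (dark) and no contact (light) in each 100 kb bin of CTNNA3, LRP1B and WWOX with 1 Mb flanks, with 1 cell per row in order of sample number and the distance from the 5′ end in Mb; the dashed line separates cells 1 to 94 from cells 96 to 124. The upstream flank of CTNNA3 is light in nearly all rows (4.07% of its bins), LRP1B shows 1 light column at the bin in contact in 21 cells, and many rows of WWOX are light throughout the gene.

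The parts of a gene moved together from cell to cell. Over residuals from a regression on the genome-wide contact share of each cell, the shares of the 5′ and 3′ parts of FHIT, split at its middle, had a Pearson correlation of 0.87 over 118 cells (Spearman 0.83). It was 0.82 for MACROD2, 0.74 for CTNNA3, 0.74 for WWOX, 0.66 for LRP1B and 0.57 for IMMP2L. These parts share the library and lie side by side. Genes also moved with their flanks. WWOX had 0.68 with its upstream and 0.80 with its downstream flank, and FHIT 0.53 and 0.81. CTNNA3 had 0.20 with its upstream flank, which was rarely in contact, and 0.78 with its downstream flank.

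Different genes, all on different chromosomes, had weak correlations with each other over all cells. Over the 15 pairs the correlation had a mean of -0.0056 ± 0.12 (SD over pairs). It ranged from -0.28 for LRP1B with WWOX to 0.19 for IMMP2L with LRP1B (Spearman -0.32 and 0.11). LRP1B and WWOX also shifted in opposite directions between the sets of sample numbers described below, and their correlation was -0.24 within cells 1 to 94 (n = 90) and -0.025 within cells 96 to 124 (n = 28). For IMMP2L with LRP1B it was 0.14 and 0.086. FHIT with WWOX had -0.018 within cells 1 to 94 and -0.58 within cells 96 to 124, against -0.11 over all cells. Ranked by this correlation over 118 cells, LRP1B was the most like IMMP2L (0.19) and MACROD2 (0.12), CTNNA3 the most like FHIT (0.10) and MACROD2 the most like WWOX (0.014), and all of these are weak. Without removal of the contact share of the cell the mean was 0.088, and all genes of a cell share its library and depth. Counting a gene as in contact if at least 50% of its body bins were, a cell had 4.37 ± 1.16 of the 6 genes in contact. Of the 118 cells, 14 had all 6, 52 had 5, 29 had 4 and 23 had 3 or fewer. No cell had 0. Cell 73, with 35034 reads, had LRP1B alone, at 100% of its bins, and cell 42, with 115422 reads, had MACROD2 alone, at 50.0% of its bins. The number of genes in contact had a Pearson correlation of 0.56 with the contact share of the cell (Spearman 0.55, n = 118), to which the genes themselves contribute a small part.

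The cells numbered 96 to 124 differed from those numbered 1 to 94 in these genes, and LRP1B and WWOX differed in opposite directions. The labels do not say that these numbers mark a batch. The sets also differed outside these genes. Averaged over all usable bins, contact frequency reached 36.5% for cells 96 to 124, against 31.9% for cells 1 to 94. The shallowest cell of the later numbers, cell 98, held 80890 reads, while cell 43 of the earlier numbers held 28372. The deepest of all cells, cell 100 with 385661 reads, was also among the later numbers. These single cells do not give the typical depth of a set. How much of the gene differences below goes with this general difference or with depth was not tested. The contact share of LRP1B was 75.9% ± 22.9 in cells 1 to 94 (n = 90) and 51.4% ± 30.0 in cells 96 to 124 (n = 28). All 20 bins of LRP1B were lower in cells 96 to 124, against 23.8% of all usable bins, and 15 of them by at least 20 points, against 2.66% of all usable bins. WWOX was at 29.5% ± 28.0 in cells 1 to 94 and 59.5% ± 30.7 in cells 96 to 124. All 12 of its bins were higher by at least 20 points, against 11.4% of all usable bins. FHIT was at 57.2 and 76.6% and MACROD2 at 74.1 and 86.4%. The bodies of IMMP2L (71.4 and 70.2%) and CTNNA3 (78.2 and 77.6%) were nearly level. The flanks differed between the sets as well, so the differences were not limited to gene bodies. Both flanks together were at 44.4 and 65.4% for WWOX, 29.8 and 50.9% for FHIT and 44.1 and 61.1% for MACROD2. For LRP1B they were at 62.1 and 49.6%. The downstream flanks of IMMP2L (82.4 and 69.6%) and CTNNA3 (73.1 and 61.8%) were lower in cells 96 to 124. The order of the means differed between the sets, with LRP1B above MACROD2 in cells 1 to 94 and below WWOX in cells 96 to 124. The single low bin of LRP1B was low in both sets, at 18.9 and 14.3%. The LRP1B body exceeded its flanks by 13.8 points in cells 1 to 94 and by 1.79 in cells 96 to 124, where it was above them in 13 of 28 cells. These sets are no groups of the study and were not compared by a test.

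**Figure D4:**
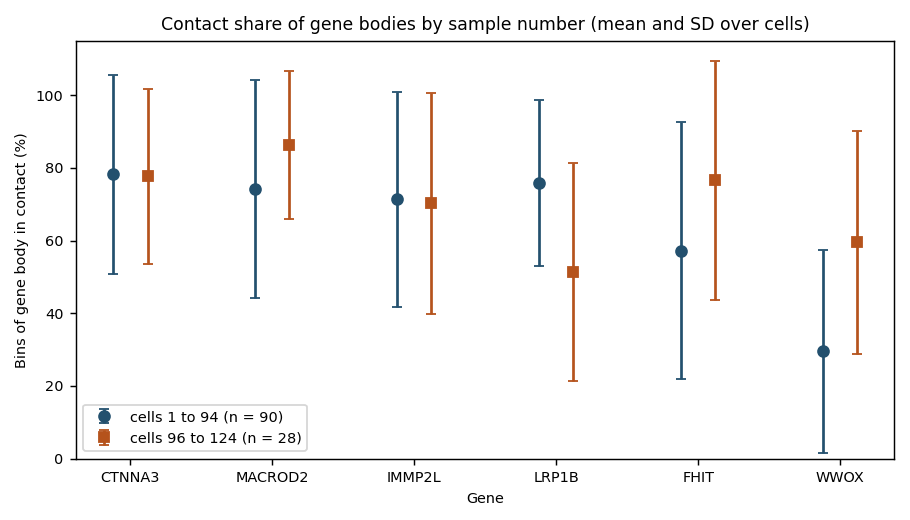
Contact share of each gene body (mean and SD over cells, % of bins) in the 90 cells numbered 1 to 94 and the 28 cells numbered 96 to 124. LRP1B lies lower in cells 96 to 124 (51.4 against 75.9%), WWOX lies higher (59.5 against 29.5%), and CTNNA3 and IMMP2L differ by less than 2 points.

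The strength of signal in contact followed the order of the genes only in part. The median ratio in cells in contact, taken over the bins of a gene, was 2.42 in IMMP2L, 2.41 in CTNNA3, 2.30 in LRP1B, 2.29 in MACROD2, 2.07 in FHIT and 1.80 in WWOX. The highest bin was IMMP2L bin 7, at 3.23, and the low bin of LRP1B had 1.38. Ratio and frequency come from the same values, so that one bears on the other. When contact required a ratio of at least 2, the shares were 50.4% for CTNNA3, 47.3% for MACROD2, 46.7% for IMMP2L, 43.4% for LRP1B, 33.5% for FHIT and 16.1% for WWOX.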

How the data were processed

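For 118 of 124 single cells the authors deposited a ratio, observed over expected reads per 100 kb bin, in 1 table. No source used here says how the expected part was made. Per the submitters' processing notes, cutadapt and Bowtie2 2.1.0 were used with the build hg19. The other 6 samples were not analysed here. Bins were usable with a value in every cell and above 0 in at least 1. Whole reads were recovered from the ratios (tolerance 0.02 reads, 100% of values above 0), and the recovery was tested on simulated data. A ratio of 1 stood for 5.63 reads in the median bin of the median cell, and for under 3 reads in 14 cells. Cells were 1 group. All genes of the rule are named except 1, which is not reported here and entered no count over genes. The members and lists were chosen with earlier results of these data known. Gene borders are those of the rule, rounded to 0.01 Mb. The strand of LRP1B is background knowledge and that of the others is from RefSeq, whose GRCh38.p14 table gave only names, neighbours and promoter sequences. Python 3.11.15, numpy 2.4.6, pandas 2.3.3 and scipy 1.17.1 were used. Alternatives were other thresholds, depths, sets of cells, gene borders and flanks.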

Additional observations from a re-analysis of the deposited data

How the results depend on the processing

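Results numbered 50 and alternatives 15, which gave 496 values. Of these, 412 kept within 1 SD between cells, the exact interval of a share of cells or 1.5 times a count of bins, whichever applied, 82 moved and 2 changed sign. The sign changes were those of gene body minus flanks with flanks of 0.5 Mb, for WWOX (1.48 points) and LRP1B (-1.95). Of 54 values of gene body contact share, 52 stayed within 1 SD, and those of MACROD2 (47.3%) and CTNNA3 (50.4%) moved at a ratio of at least 2. These SDs between cells were 26.6 to 35.6 points, so the limit is wide and large shifts stay within it. At a ratio of at least 2, FHIT (33.5% against 61.8%) and WWOX (16.1% against 36.7%) stayed within 1 SD. The number of body bins at 80% or more was 66 at a ratio of 0.5, 0 at a ratio of 2, 9 with 50000 reads per cell (109 cells, 9 left out) and 36 in cells 96 to 124, against 21. Bins at 20 to under 80% numbered 31 at a ratio of 0.5, against 74. Bins under 20% numbered 1 at a ratio of 0.5, 10 at a ratio of 2, 5 in cells 1 to 94 and 1 in cells 96 to 124, against 3. Genes in contact per cell were 2.39 at a ratio of 2 and 3.21 when 75% of bins were required. The cause was not tested. Leaving out the 3 gap bins, leaving out bin 1 of IMMP2L and pairs within sets of cells were chosen after seeing the data. With 118 cells, 1 cell is 0.85% of a frequency, and single reads decide contacts in the shallowest cells.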
